A study of Mus musculus with 6 samples.

Results

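The genes of the motile cilium axoneme were followed in the olfactory epithelium of mice with the OMP-GFP allele. Members were taken by gene symbol: dynein heavy, intermediate and light chains, tektins, radial spoke and central pair proteins, the nexin-dynein complex, the Ccdc39 and Ccdc40 rulers, all genes named Cfap with a number, and the transcription factors Foxj1, Rfx2 and Rfx3. The platform annotation held 65 such genes on 106 probe sets, of 18193 named genes on the array. The rule uses symbols and not the comparison of genotypes, and the probe set of highest mean signal stood for each gene. The samples were 3 RNA preparations from mice homozygous for OMP-GFP and 3 from mice heterozygous for it, each hybridised to 1 Affymetrix mouse 430 2.0 array. In this knock-in line, as background, the coding sequence of olfactory marker protein is replaced by green fluorescent protein, so every group carries the reporter no wild-type mice were included, and the groups differ in copies of both Omp and the reporter. The labels give no strain, age or sex, and do not say whether animals were pooled. The comparison asked how the loss of olfactory marker protein bears on transcript levels in this tissue.

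Motile cilia beat because dynein motors, set in outer and inner arms along the microtubule doublets, slide neighbouring doublets against each other. Radial spokes, the central pair and the nexin-dynein links turn that sliding into bending, and Foxj1 with the Rfx factors switches on the genes for these parts. In the nose, beating cilia belong to ciliated cells of the respiratory lining, which borders the olfactory sheet. The cilia of mammalian olfactory neurons also have a central pair, but they lack dynein arms and do not beat in the usual way, so they share some of these genes and not others. In bulk tissue fewer cells of a type and less RNA per cell cannot be told apart.

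Values are MAS5 signals, linear intensities per probe set that the authors had scaled to an equal trimmed mean of 500 per array, and signals of different probe sets cannot be set against each other. Differences are homozygous minus heterozygous on the scale of log2(signal + 38.8). They were tested with limma over 22514 probe sets and adjusted by the Benjamini-Hochberg method over all of them. Values per array are given in the order of replicates 1, 2 and 3. The array medians lay between 147.9 and 163.7, and precision is set by having 3 arrays per genotype.

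Most markers of olfactory neurons, sustentacular cells and respiratory secretory cells on the array were bright enough to be tested. These were 8 of 9, 7 of 7 and 9 of 12 genes. The dim ones were Cngb1 of the neuron list, at 42.1 to 79.7, and Scgb1a1, Scgb3a2 and Muc5ac of the secretory list. Scgb1a1 read 3.6 to 10.6. Stoml3, a protein of olfactory neuron cilia, read 17969.6, 18988 and 20031 in homozygous arrays, against 19962, 18344 and 15125 in heterozygous arrays. Reg3g, an antimicrobial lectin of nasal epithelium, read 10219.9, 10578 and 12434 in homozygous arrays, against 10301, 10216 and 8687 in heterozygous arrays. Some libraries stood apart before any member was compared. The Omp probe set 1422199_at read 5.7, 8.8 and 31.3 in homozygous arrays, against 26.3, 4664 and 9143 in heterozygous arrays, so the library labelled heterozygous 1 lay with the homozygous arrays at that probe set, whose place in the gene is not known here. The other Omp probe set, 1422200_at, read 7918, 8148 and 8774 in homozygous arrays, against 8709, 7968 and 8318 in heterozygous arrays, with overlapping groups, a difference of -0.0093 ± 0.063 (SE) and a limma adjusted p of 0.994. It therefore did not separate the genotypes. The summed myelin and glia signal, over 9 genes on the array, was 20294 in the library labelled heterozygous 1, against 8560 and 9084 in heterozygous 2 and 3 and 8528 to 9170.1 in homozygous arrays. Mbp and Pmp22 read 7268 and 4899 in heterozygous 1, while Mog and Mobp were not high there. In heterozygous 3 the summed signal of 14 olfactory bulb and brain neuron genes was 4541, against 2350 to 2629 in homozygous arrays and 2459 and 2533 in heterozygous 1 and 2. Rbfox3 and Cplx1 read 791 and 738 in heterozygous 3, while Eomes had its lowest value there, 205. Neither list rose as a whole. The 9 olfactory neuron genes on the array summed to 44867 in heterozygous 3, against 54851 to 59390.1 in homozygous arrays and 60893 and 54946 in heterozygous 1 and 2. Homozygous 1 had the highest summed signal of 7 red cell genes, 6774, against 4328 and 4499.8 in homozygous 2 and 3 and 3333 to 4659 in heterozygous arrays, the lowest being heterozygous 3. The labels were kept. Without 1 array or another, 23 of the 28 members described in most detail moved by over 1.5 times, and the exceptions were Rfx3, Drc1, Ccdc39, Dnah1 and Cfap20dc.

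Axoneme genes had small estimated differences between the genotypes, and none passed adjustment. Of the 65 genes, 51 had a mean signal above the filter and were tested. In limma 0 of 51 passed an adjusted p of 0.05, the lowest adjusted p being 0.859, beside 0 of 22514 probe sets (0.0%). Without moderation of the variances the count past adjustment was likewise 0. Before adjustment, 4 members had a p under 0.05, or 7.84%, beside 550 of 11426 genes, or 4.81%. Rfx3, Cfap69 and Drc1 were the 3 higher in homozygous arrays, beside 2.41% of genes, and Cfap20dc the 1 lower, beside 2.41% as well. Unmoderated variances left 2 members at that level, or 3.92%, beside 5.26% of probe sets. The differences ran from -0.30 for Cfap61 to 0.43 for Drc1, and 23 of the 51 were under 0.1 in size. Every 95% interval of a difference lay within 2-fold in either direction, and 46 of the 51 lay within 1.5-fold.

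Small differences were more often above 0 than below. Of the 51 tested members 34, or 66.7%, had a difference above 0, beside 5695 of 11426 genes, or 49.8%, and the median was 0.042 for the members and -0.00041 for all genes. With no filter 42 of all 65 members lay above 0, beside 51.7% of 18193 genes. Shifting the arrays to a common median lowers the differences of all genes together, and 23 of 51 members then lay above 0, or 45.1%, with a median of -0.011, beside 30.6% and -0.057 for all genes. The members' median stayed above that of all genes under this scaling. The size of the split varied with single arrays. Without heterozygous 3 the members' share was 54.9% with a median of 0.014, beside 46.3% and -0.012 for all genes. Without homozygous 1 it was 66.7% with a median of 0.095, beside 49.5% and -0.0011. With the library labelled heterozygous 1 left out the share was 68.6% with a median of 0.083, beside 52.2% and 0.0069. The pair heterozygous 1 and 3 was also left out in 1 fit, added once the data had been seen. The members' share was then 52.9% with a median of 0.046, beside 48.0% and -0.0074 for all genes. That fit keeps 1 heterozygous array and measures no spread within that group, so only the sizes and signs of its differences are given.

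**Figure D1:**
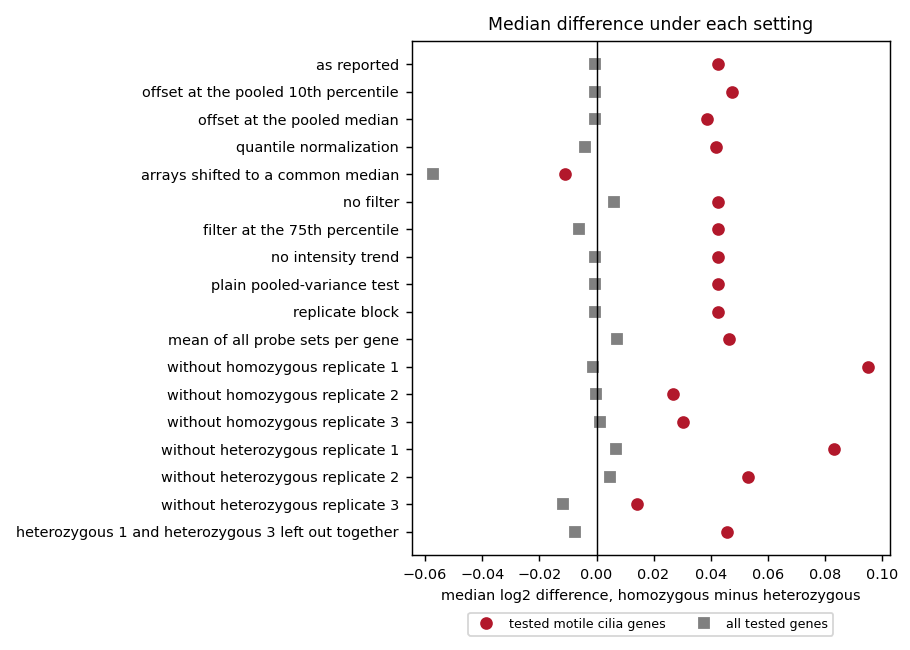
Median log2 difference, homozygous minus heterozygous, under each setting, for the tested axoneme genes (circles) and all tested genes (squares). The axoneme median runs from -0.011 with arrays shifted to a common median to 0.095 without homozygous 1, and it lies above that of all genes in every setting shown.

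**Figure D2:**
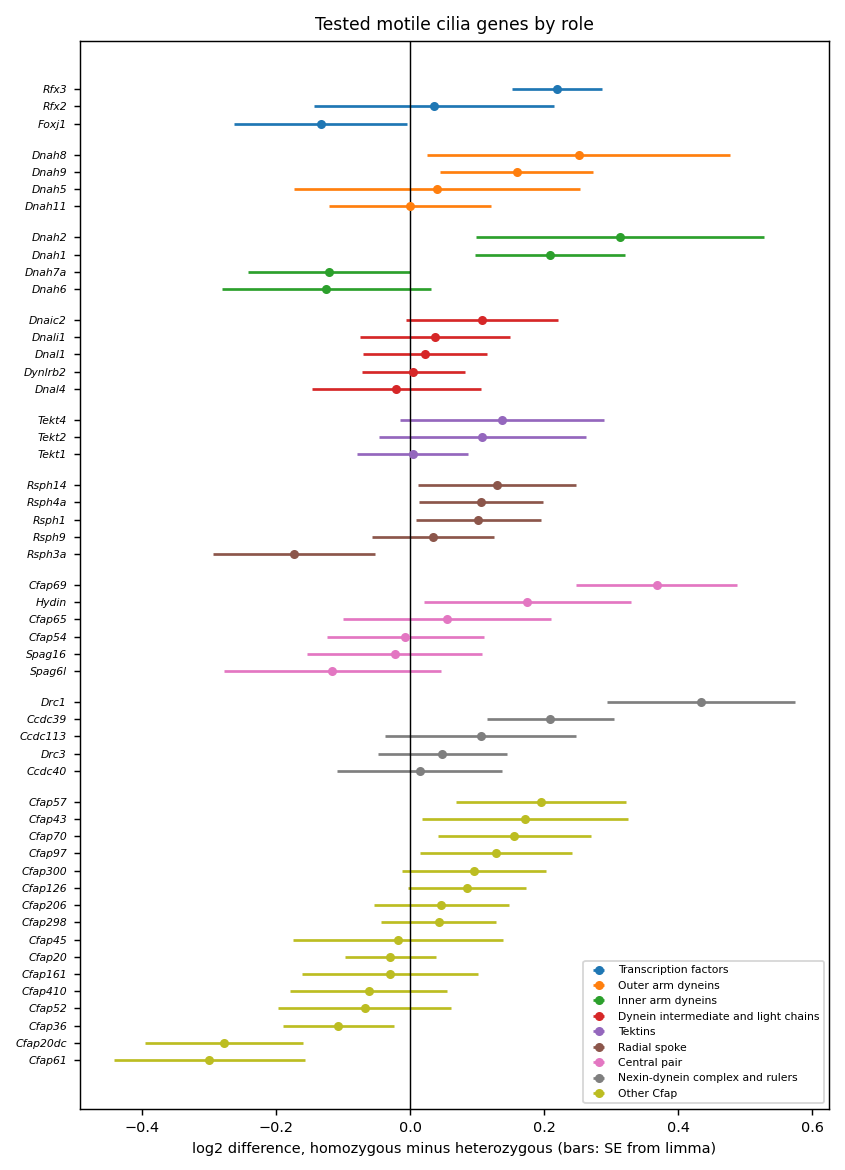
Log2 difference, homozygous minus heterozygous, for each of the 51 tested axoneme genes, grouped by role, with bars for the SE from limma. The points run from -0.30 for Cfap61 to 0.43 for Drc1, and most bars cross or come near 0.

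Among the transcription factors, Rfx3 had a small difference with little spread, while Foxj1 lay the other way. Rfx3, which binds the X-box of ciliary gene promoters, read 3461, 3611 and 3539 in homozygous arrays, against 3109, 2860.1 and 3141 in heterozygous arrays. All homozygous arrays lay above all heterozygous ones. Its means were 3537 ± 75.3 on homozygous arrays and 3037 ± 154 on heterozygous ones (SD, n = 3 each), a difference of 0.22 ± 0.067 (SE) with a limma adjusted p of 0.859. Without heterozygous 1 and 3 the difference was 0.30. Its other probe set, below the filter, differed by 0.15. Foxj1, the factor that drives cells to form motile cilia, read 672, 693 and 761 in homozygous arrays, against 873, 872 and 622 in heterozygous arrays. Heterozygous 1 and 2 lay above every homozygous array and heterozygous 3 below every one, so the groups overlapped. Its difference was -0.13 ± 0.13 (SE), with a 95% interval of -0.42 to 0.15 and a limma adjusted p of 0.923. That difference was -0.29 without heterozygous 3, and -0.056 without heterozygous 1 and as much without heterozygous 2. Rfx2, a relative of Rfx3, read 265, 260.2 and 170.3 in homozygous arrays, against 251, 242 and 178 in heterozygous arrays. Homozygous 3 and heterozygous 3 were its low arrays, and the difference was 0.035 ± 0.18 (SE). Of its other probe sets, all below the filter, 1433416_at differed by -0.20, 1433415_at by -0.39 and 1442578_at by 0.15.

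**Figure D3:**
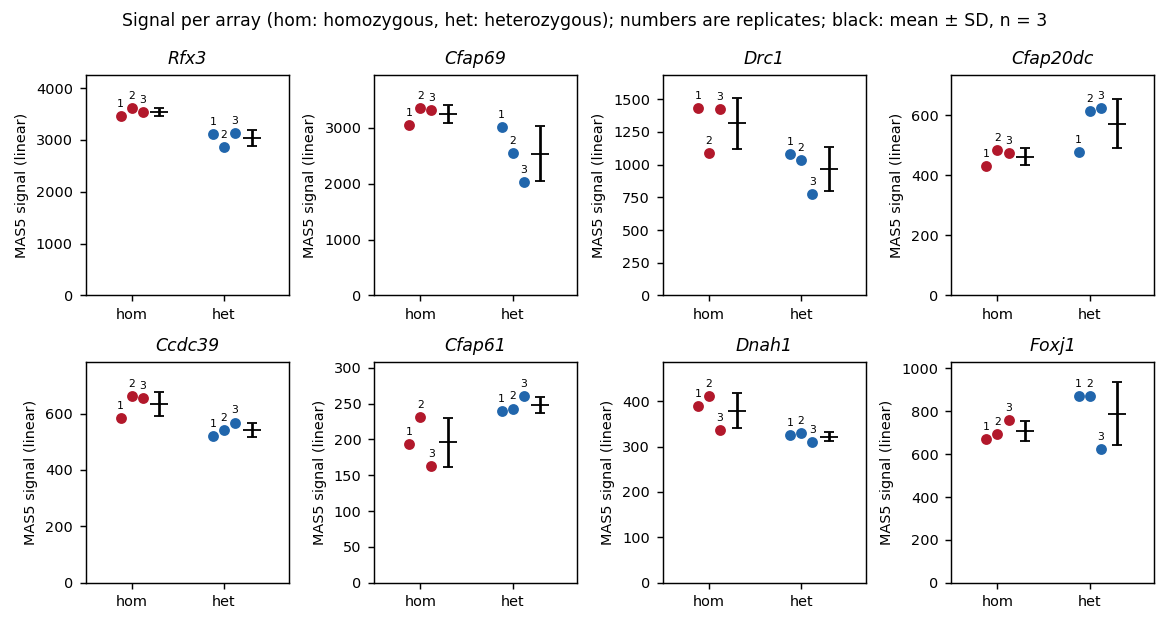
MAS5 signal on each array for 8 members, with replicate numbers above the points and the mean ± SD of 3 arrays in black, homozygous left of heterozygous. Rfx3, Cfap69, Drc1, Ccdc39 and Dnah1 had no overlap between groups with homozygous arrays above, Cfap61 had none with homozygous arrays below, and Cfap20dc and Foxj1 overlapped.

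Since Rfx factors act through a known DNA element, the promoters of the members were searched for it. RefSeq windows of 300 bases on GRCm38.p6, from 250 before to 50 after a gene's start, were at hand for 56 of the 65 genes. Foxj1, Cfap53, Cfap54, Cfap65, Cfap97, Cfap157, Cfap299, Rsph1 and Rsph4a had no entry there. The X-box was written as GTNNCC, then 0 to 3 bases, then GGNAAC, on both strands, so a match in 1 direction often matches in the other as well. Only this palindromic form was searched, and looser forms of the element, such as those with AG in place of GG, were not counted. The form was found in 5 of 56 members, or 8.93%, beside 724 of 27025 genes with a window, or 2.68%. The forkhead element GTAAACA, which Foxj1 can bind, was found on either strand in 4 members, or 7.14%, beside 4.05% of genes. The members with a match to this form of the X-box were Cfap20dc, Tekt4, Spag6l, Cfap298 and Cfap206. The windows of the 3 among them that are described below are shown to let the element be seen in place, in gene direction, with the matched element in capitals. They lie at chr14:8666241-8666540 on the minus strand, chr17:25471340-25471639 on the plus strand and chr16:90934800-90935099 on the minus strand.
Cfap20dc: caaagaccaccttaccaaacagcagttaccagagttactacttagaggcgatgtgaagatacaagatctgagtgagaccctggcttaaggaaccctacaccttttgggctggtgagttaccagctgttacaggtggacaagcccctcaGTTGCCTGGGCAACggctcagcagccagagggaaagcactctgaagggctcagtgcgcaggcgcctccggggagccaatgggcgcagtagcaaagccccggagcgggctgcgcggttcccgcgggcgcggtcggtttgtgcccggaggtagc
Tekt4: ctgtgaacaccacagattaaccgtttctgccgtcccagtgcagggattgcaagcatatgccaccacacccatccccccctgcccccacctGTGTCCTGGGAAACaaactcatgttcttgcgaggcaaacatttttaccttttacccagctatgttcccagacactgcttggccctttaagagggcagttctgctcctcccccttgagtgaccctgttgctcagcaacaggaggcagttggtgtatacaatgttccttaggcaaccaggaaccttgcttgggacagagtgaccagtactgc
Cfap298: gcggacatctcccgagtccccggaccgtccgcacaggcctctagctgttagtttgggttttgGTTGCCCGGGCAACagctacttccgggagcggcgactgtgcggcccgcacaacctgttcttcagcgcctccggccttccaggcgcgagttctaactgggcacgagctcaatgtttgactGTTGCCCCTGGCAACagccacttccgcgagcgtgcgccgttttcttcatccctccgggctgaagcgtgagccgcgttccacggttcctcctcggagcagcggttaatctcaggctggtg
The Cfap298 window holds 2 matches, the other windows 1 each. Genes with a match lay on both sides of 0 in the comparison of genotypes: Cfap20dc differed by -0.28, Spag6l by -0.12, Cfap298 by 0.042, Cfap206 by 0.046 and Tekt4 by 0.14. A match of letters shows no binding.

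Outer arm dyneins, the motors that set beat frequency, had overlapping groups at each tested probe set. Of 5 heavy chains 4 were tested, and 0 had an unadjusted p under 0.05. Dnah9, a heavy chain of the distal outer arm, read 391, 365 and 337 in homozygous arrays, against 337, 291 and 339 in heterozygous arrays. Its difference was 0.16 ± 0.11 (SE), the groups overlapped at their edges, and its dimmer probe set 1442412_at lay the other way at -0.31. Dnah8, known mainly from sperm flagella, had the widest spread of the role and read 240.0, 202 and 286 in homozygous arrays, against 298, 187 and 131 in heterozygous arrays. Heterozygous 1 was its highest array and heterozygous 3 its lowest, so the difference of 0.25 ± 0.23 (SE) is smaller than the spread within the heterozygous group. It was 0.017 without heterozygous 3, 0.51 without the library labelled heterozygous 1 and 0.14 without homozygous 3. Its dim probe set 1425692_a_at, below the filter, read 36.5, 21.7 and 29.9 in homozygous arrays, against 17.3, 8.5 and 3.9 in heterozygous arrays, without overlap and with a difference of 0.49, but all of these signals lie below the offset. Dnah11, a proximal outer arm motor that is altered in some patients with primary ciliary dyskinesia, read 344, 451 and 447 in homozygous arrays, against 393, 420.3 and 420.1 in heterozygous arrays. Its difference was -0.00019 ± 0.12 (SE), with a 95% interval of -0.27 to 0.27. Dnah5, the main outer arm heavy chain, differed by 0.040 ± 0.21 (SE).

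Inner arm dyneins, which shape the bend, had differences of both signs. Of 5 heavy chains 4 were tested. Dnah1 read 389.6, 412 and 336 in homozygous arrays, against 326, 329.6 and 311 in heterozygous arrays. All homozygous arrays lay above the heterozygous ones, with a difference of 0.21 ± 0.11 (SE) and a limma adjusted p of 0.893. Dnah2 read 161, 327 and 231 in homozygous arrays, against 224, 162 and 155 in heterozygous arrays. Homozygous 2 stood above every other array and homozygous 1 lay near the bottom, so the difference of 0.31 ± 0.21 (SE) came with overlapping groups, and it was 0.095 without homozygous 2. A dim probe set of Dnah2, 1454103_at, differed by -0.21. Dnah6 and Dnah7a differed by -0.13 and -0.12.

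The smaller dynein chains that the symbol rule took were nearly level. Of 6 such genes 5 were tested, and their differences ran from -0.021 to 0.11. The inner arm intermediate chains Wdr78 and Wdr63, outside the rule, differed by 0.25 ± 0.13 and 0.066 ± 0.14 (SE). Dnaic2, an intermediate chain that anchors the outer arm, read 569, 460.1 and 522 in homozygous arrays, against 532, 446 and 451 in heterozygous arrays, with a difference of 0.11 ± 0.11 (SE). Dynlrb2, a roadblock-type light chain, read 3820.5, 4112 and 4469.9 in homozygous arrays, against 4062, 4379.6 and 3908 in heterozygous arrays. Its groups covered the same range and the 95% interval of its difference was -0.16 to 0.17. Dnal4 had the largest spread of the role and read 917, 775 and 914 in homozygous arrays, against 972, 974 and 717 in heterozygous arrays. Its lowest arrays were homozygous 2 and heterozygous 3, and the difference was -0.021 ± 0.13 (SE). Dnal1, a light chain of the outer arm, and Dnali1, a chain of the inner arm, differed by 0.022 and 0.037.

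Tektins, rod proteins inside the microtubule doublets, gave the steadiest member of all. Tekt1 read 877, 971 and 965 in homozygous arrays, against 940.0, 941 and 921 in heterozygous arrays. Its SD over the 6 arrays was 0.051 on the log2 scale, the lowest of the 51 members, whose median was 0.15, beside 0.12 for all genes tested. The difference of Tekt1 was 0.0040 ± 0.083 (SE). Tekt2 read 629, 526 and 416 in homozygous arrays, against 577, 427 and 439.9 in heterozygous arrays, with homozygous 1 and the library labelled heterozygous 1 as its high arrays and a difference of 0.11 ± 0.15 (SE). Tekt4 read 242, 356 and 373 in homozygous arrays, against 271, 296 and 292 in heterozygous arrays. Its low array was homozygous 1, the groups overlapped, and the difference was 0.14 ± 0.15 (SE). It was 0.31 without homozygous 1, 0.064 without homozygous 2 and 0.034 without homozygous 3.

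Radial spoke genes lay slightly above 0 apart from Rsph3a. Of 6 genes 5 were tested, 4 with a difference above 0, none at an unadjusted p under 0.05. Rsph9, a spoke head protein, read 1928, 2266 and 2274 in homozygous arrays, against 2112, 2271 and 1929 in heterozygous arrays, and its difference was 0.034 ± 0.091 (SE). The other spoke head genes Rsph1 and Rsph4a differed by 0.10 ± 0.093 and 0.11 ± 0.093 (SE), and Rsph14 by 0.13 ± 0.12 (SE). Rsph3a, a protein of the spoke stalk, read 379, 418 and 523 in homozygous arrays, against 481, 512 and 497 in heterozygous arrays. Homozygous 1 and 2 were low and homozygous 3 lay above every heterozygous array, so the groups overlapped at a difference of -0.17 ± 0.12 (SE). Its dimmer probe set 1432580_at differed by 0.37.

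Among central pair genes, Cfap69 had the largest difference, and its tested probe sets all lay above 0. In mice Cfap69 is present in olfactory neuron cilia, where it is known to shape the timing of the odour response, as well as in motile cilia and sperm. It read 3055, 3348 and 3319 in homozygous arrays, against 3013, 2554 and 2031 in heterozygous arrays. All homozygous arrays lay above the heterozygous ones, but heterozygous 1 came close and heterozygous 3 was far below. The means were 3241 ± 162 on homozygous arrays and 2533 ± 491 on heterozygous ones (SD, n = 3 each), a difference of 0.37 ± 0.12 (SE) with a limma adjusted p of 0.859. The probe set 1440796_at of the same gene read 1891, 1832 and 1819 in homozygous arrays, against 1508, 1601 and 1137 in heterozygous arrays, and differed by 0.39 ± 0.11 (SE). The probe set 1457697_at read 1112, 1132 and 1252 in homozygous arrays, against 1261, 977 and 712 in heterozygous arrays, with heterozygous 1 the highest of all arrays there, and differed by 0.27 ± 0.16 (SE). Probe sets of 1 gene share the RNA and are no replicates. Without heterozygous 3, whose olfactory neuron genes were low as given above, the difference of Cfap69 was 0.22. Without the library labelled heterozygous 1 it was 0.50. The limma adjusted p was 0.464 without heterozygous 3 and 0.204 without heterozygous 1. Without both arrays the difference of Cfap69 was 0.34, with 1 heterozygous array left and no spread measured in that group. The part of the olfactory neuron content in this difference was not tested.

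The remaining central pair genes had smaller differences. Of 10 genes 6 were tested, 3 above 0 and 3 below. Hydin, a large protein that projects from the central pair, read 217, 217 and 206 in homozygous arrays, against 184, 229 and 148 in heterozygous arrays. Heterozygous 2 was its highest array and heterozygous 3 its lowest, the difference was 0.17 ± 0.15 (SE), and its dim probe set 1431589_at differed by -0.057. The Hydin difference was 0.046 without heterozygous 3, 0.30 without heterozygous 2 and -0.086 without heterozygous 1 and 3. Spag16 and Spag6l, both central pair proteins, differed by -0.023 and -0.12, Cfap54 by -0.0072 and Cfap65 by 0.054.

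The symbol rule took 5 genes of the nexin-dynein complex and the rulers, and all 5 were tested. All 5 lay above 0, beside 49.8% of all genes tested, with a median difference of 0.11. The rule does not cover the whole complex. Its subunits Ccdc65, Gas8, Tcte1 and Iqcg, listed under other ciliated cell genes, differed by -0.0078, 0.045, 0.034 and 0.20. Drc1, the scaffold of the nexin-dynein links, read 1430.1, 1086 and 1426 in homozygous arrays, against 1082, 1037 and 775 in heterozygous arrays. Its homozygous arrays lay above the heterozygous ones, although homozygous 2 and heterozygous 1 nearly met. The means were 1314 ± 197 on homozygous arrays and 964 ± 166 on heterozygous ones (SD, n = 3 each), a difference of 0.43 ± 0.14 (SE) with a limma adjusted p of 0.859. Heterozygous 3 was again the lowest array, and the difference was 0.29 without it and 0.32 without heterozygous 1 and 3. Ccdc39, which with Ccdc40 measures out the repeat along the doublet, read 585, 664 and 654 in homozygous arrays, against 519.5, 541 and 568 in heterozygous arrays. The groups did not overlap, and the difference was 0.21 ± 0.095 (SE) with a limma adjusted p of 0.869. The dim probe sets 1429780_at and 1440504_at of Ccdc39 differed by -0.057 and -0.17. Its partner Ccdc40 differed by 0.014 ± 0.12 (SE), so the genes of the ruler pair had unequal differences, though that contrast was not tested. Drc3 read 1076, 1278 and 1319.6 in homozygous arrays, against 1254, 1171 and 1115 in heterozygous arrays, with a difference of 0.048 ± 0.096 (SE), and Ccdc113 differed by 0.11.

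The other Cfap genes split evenly, 8 above and 8 below 0 among 16 tested of 20. Cfap20dc, which carries a domain named after Cfap20, read 429, 482 and 474 in homozygous arrays, against 478, 614 and 623 in heterozygous arrays. Homozygous arrays were lower except that heterozygous 1 lay among them, with a difference of -0.28 ± 0.12 (SE), an unadjusted p of 0.0385 and a limma adjusted p of 0.866. Without heterozygous 1 and 3 the difference was -0.38. Its dimmer probe sets 1431854_a_at and 1430789_at differed by -0.11 and -0.27. Cfap61, a protein of the radial spoke base, read 194, 232 and 162 in homozygous arrays, against 240.3, 243 and 261 in heterozygous arrays. All homozygous arrays lay below the heterozygous ones, with a difference of -0.30 ± 0.14 (SE) and a limma adjusted p of 0.881. Cfap36 read 3901, 4278 and 3751 in homozygous arrays, against 3862, 4404 and 4609.9 in heterozygous arrays, with overlapping groups and a difference of -0.11 ± 0.082 (SE).

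Cfap298 and Cfap300, which help to assemble dynein arms, differed by 0.042 ± 0.085 and 0.095 ± 0.11 (SE). The signal of Cfap298 was 1289, 1385 and 1377 in homozygous arrays, against 1388, 1358 and 1192 in heterozygous arrays, and only heterozygous 3 lay apart, on the low side. Cfap410 read 667, 608 and 616 in homozygous arrays, against 780.1, 567 and 646 in heterozygous arrays at its brighter probe set, with the library labelled heterozygous 1 highest and a difference of -0.062 ± 0.12 (SE). At 1424267_at it read 564, 434 and 421 in homozygous arrays, against 435, 377 and 351 in heterozygous arrays, and differed by 0.26 ± 0.13 (SE), so the probe sets of Cfap410 gave opposite signs. Cfap70 read 361, 426 and 360.1 in homozygous arrays, against 320.4, 329 and 368 in heterozygous arrays, a difference of 0.16 ± 0.11 (SE), with -0.093 at its dim probe set 1430926_at. Cfap97 read 805, 945 and 730.3 in homozygous arrays, against 674, 817 and 764 in heterozygous arrays, a difference of 0.13 ± 0.11 (SE), with 0.32 at 1450076_at and -0.15 at 1420989_at. For both of these genes the arrays of the groups overlapped, and Cfap97 was 0.032 without homozygous 2, 0.055 without heterozygous 1 and 0.21 without homozygous 3. Cfap20, Cfap45, Cfap52 and Cfap161, which are among the proteins that line the inside of the doublets, differed by -0.030, -0.019, -0.068 and -0.030. The tested tektins, also inside the doublets, lay above 0, at 0.0040 to 0.14. Cfap126, which marks multiciliated cells in mice, differed by 0.085, Cfap206 by 0.046, Cfap43 by 0.17 and Cfap57 by 0.20.

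The 14 members below the filter were Cfap157, Cfap221, Cfap299, Cfap47, Cfap53, Cfap97d1, Dnah12, Dnah17, Dnaic1, Rsph6a, Spag17, Spag6, Tekt3 and Tekt5. Several of these, such as Tekt5 and Rsph6a, are known from testis and sperm. Their signals reached 193.6 at most, for Cfap299 in homozygous 2. In the fit with no filter the lowest adjusted p among them was 0.905, for Spag6, whose probe set read 3.9, 10.4 and 18.8 in homozygous arrays, against 0.7, 0.9 and 0.8 in heterozygous arrays. The Spag6 arrays did not overlap, but all of those signals lie below the offset of 38.8.

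Groups did not overlap for 6 of the 51 tested members, or 11.8%, beside 10.3% of all genes tested, so the members' share lies near the background. Homozygous arrays were higher for 5 of them, beside 4.82% of genes, and lower for 1, Cfap61, beside 5.51%. The 5 were Rfx3, Cfap69, Drc1, Ccdc39 and Dnah1. Of the 10 members with at least 2 tested probe sets, 9 had the same sign at all of them, Cfap410 being the exception.

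In the map of deviations by gene, arrays of the same genotype differed from each other. Against each gene's mean over the 6 arrays, the median of the 51 members was -0.040 in homozygous 1, 0.084 in homozygous 2 and 0.075 in homozygous 3. It was 0.044 in heterozygous 1, -0.0068 in heterozygous 2 and -0.075 in heterozygous 3. Homozygous 1 thus lay below heterozygous 1 and 2, and the groups overlapped in this median. Homozygous 1 held the lowest value of 13 of the 51 members and heterozygous 3 that of 15, while homozygous 2 held the highest value of 16. Over all 11426 genes homozygous 1 held the lowest value of 1565 and homozygous 2 the highest of 1636. Heterozygous 3 also held the most lowest values there, 3146, and its median deviation was -0.022.

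**Figure D4:**
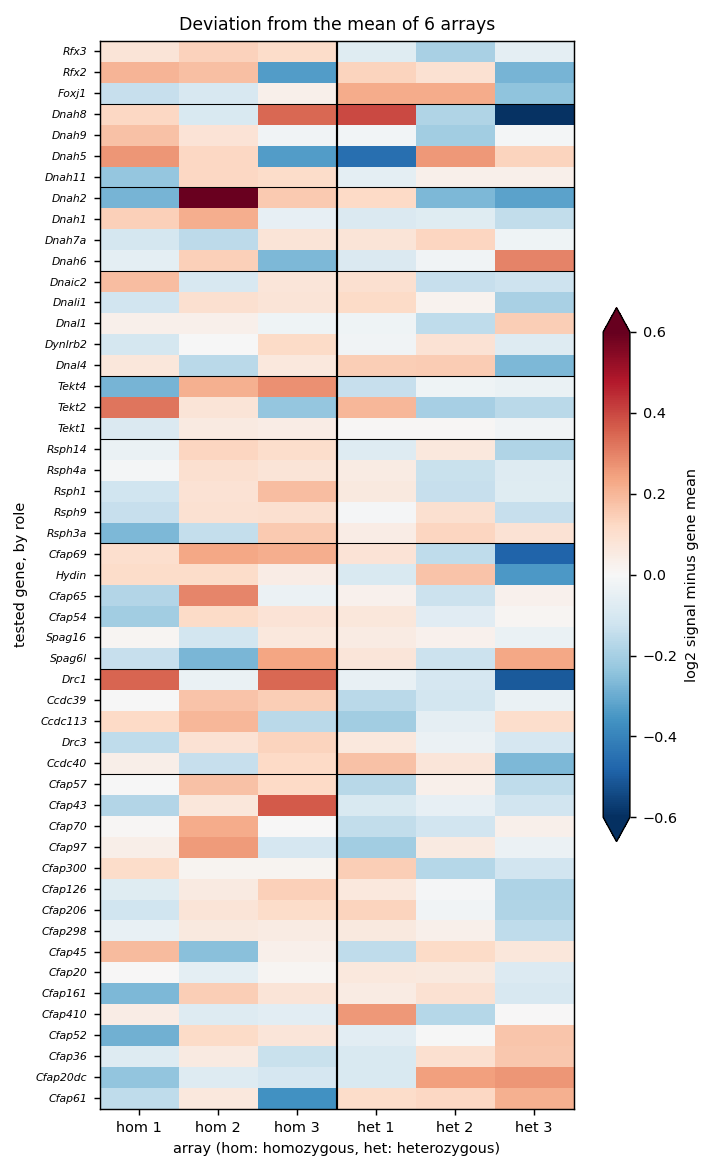
Deviation of the log2 signal from its mean over the 6 arrays for each of the 51 tested members, by role, with homozygous arrays left of the line. Red cells are above and blue cells below the gene's mean. The deepest cells sit in single arrays, such as Dnah2 in homozygous 2, Cfap69 and Drc1 in heterozygous 3 and Dnah8 in heterozygous 1 and 3.

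Genes that build or accompany the axoneme also had small differences. Of 19 dynein arm assembly factors on the array 16 were tested, with a median of 0.041, and 0 passed adjustment in limma. At an unadjusted p under 0.05, 1 was higher and 0 lower, or 6.25%, beside 4.81% of all genes tested. That gene, Lrrc6, whose protein acts in the cytoplasm to build dynein arms, read 313, 345 and 322 in homozygous arrays, against 219.6, 221 and 296 in heterozygous arrays. Its homozygous arrays lay above the heterozygous ones at a difference of 0.37 ± 0.13 (SE) and an adjusted p of 0.859. Armc4, needed to dock the outer arm, differed by 0.24, Ruvbl2, a chaperone subunit, by 0.068 and Dnaaf5 by -0.012. Of 50 other ciliated cell genes 44 were tested, with a median of 0.023 and 0 past adjustment. Above 0 were 28, or 63.6%, beside 49.8% of all genes tested. At an unadjusted p under 0.05, 1 was higher and 0 lower, or 2.27%, beside 4.81% of all genes tested. That gene, Odf3b, read 694, 622 and 624 in homozygous arrays, against 545, 560.5 and 462 in heterozygous arrays, without overlap and with a difference of 0.29 ± 0.10 (SE). Wdr78, an inner arm intermediate chain, differed by 0.25, and the tubulins Tubb4b and Tuba1a by -0.030 and 0.0092.

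Genes listed for the multiciliation program, in which cells multiply their basal bodies, had small differences of both signs. Of 18 such genes 14 were tested, 5 above 0 and 9 below, with a median of -0.022. The share above 0 was 35.7%, beside 49.8% of all genes tested. In limma 0 of the 14 had an unadjusted p under 0.05, beside 4.81% of all genes tested, and 0 passed adjustment. Deup1, a protein of the deuterosome from which basal bodies are made, read 259, 293 and 327 in homozygous arrays, against 374, 375 and 309 in heterozygous arrays. Homozygous 3 lay above heterozygous 3, so the groups overlapped at a difference of -0.24 ± 0.13 (SE). E2f5 and Tfdp1, factors of the same program, differed by -0.13 and -0.067, and the centriole kinase Plk4 by 0.052.

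Marker lists of other cells were read beside the members, with 0 genes past adjustment in limma in each. Respiratory secretory markers had 9 tested of 12, with 8 above 0, or 88.9%, beside 49.8% of all genes tested. Their median was 0.070, with summed signals of 66131 to 73203 in homozygous and 65330 to 68665 in heterozygous arrays. In that list Scgb3a1 differed by 0.24, Reg3g by 0.18, Cyp2f2 by 0.027 and Bpifa1 by -0.025. The array of lowest sum was heterozygous 3, which also had the lowest median of the members. Olfactory neuron markers had 8 tested and a median of 0.15, with 7 above 0, or 87.5%, beside 49.8% of all genes tested. Gnal differed by 0.18, Kcnk10 by 0.23, Stoml3 by 0.10 and Gng13 by 0.055. Gnal was the 1 at an unadjusted p under 0.05, or 12.5%, beside 4.81% of all genes tested. The part of these cell contents in the members' differences was not tested.

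The 7 sustentacular markers differed by -0.077 to 0.089, with sums of 86114 to 89525 in homozygous and 83859 to 89494 in heterozygous arrays. Within them Muc2, Gpx6 and Cbr2 differed by 0.089, 0.060 and 0.026. Ependyma and choroid plexus markers, whose ependymal cells also bear motile cilia, had 6 tested and a median of -0.031, with sums of 9450.0 to 10099.5 in homozygous and 9764 to 10457 in heterozygous arrays. Tmem212 in that list read 653, 822 and 726 in homozygous arrays, against 688, 907 and 1215 in heterozygous arrays, highest in heterozygous 3, while Folr1, Otx2 and Clic6 differed by 0.23, -0.047 and -0.015. The 6 tested brain neuron genes had a median of -0.22, with Eomes at 0.64, Reln at -0.23 and Syn2 at -0.0041. At an unadjusted p under 0.05, 1 of them was higher and 1 lower, or 33.3%, beside 4.81% of all genes tested. The 5 myelin and glia genes had a median of -0.51, with Ugt8a at -0.67, Cnp at -0.31 and Aqp4 at 0.096. At an unadjusted p under 0.05, 1 of them was lower, or 20%, beside 4.81% of all genes tested. The 4 red cell genes had a median of 0.45, with Alas2 at 0.53, Hbb-b2 at 0.36 and Car2 at 0.21, and all 4 were highest in homozygous 1 and lowest in heterozygous 3.

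**Figure D5:**
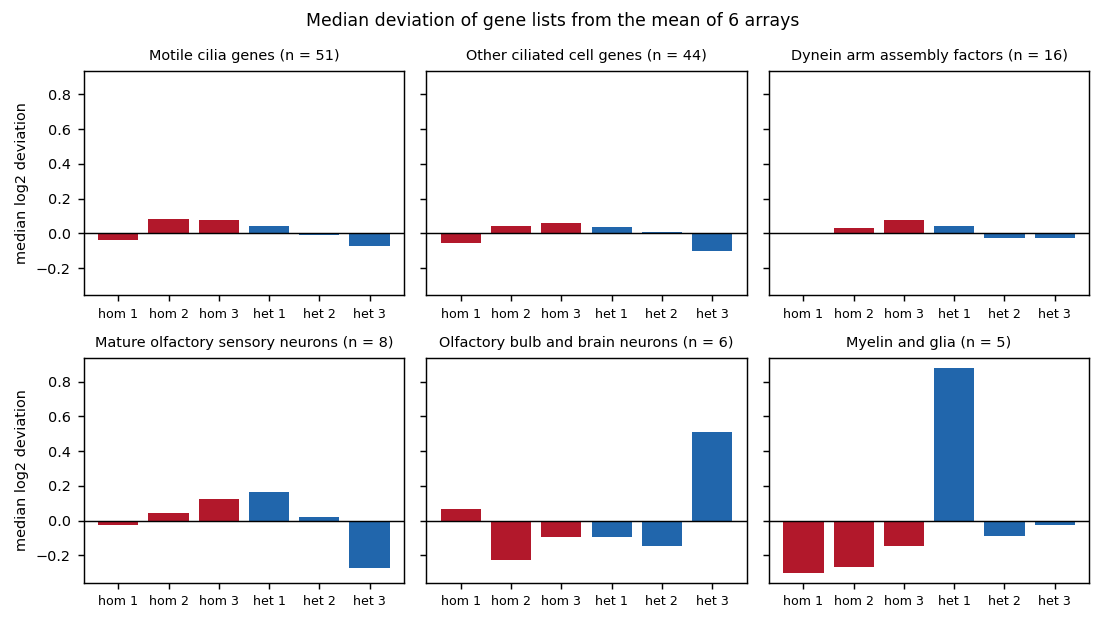
Median log2 deviation from the mean of the 6 arrays for the tested genes of 6 lists, with homozygous arrays (hom) in red left of heterozygous arrays (het) in blue. The axoneme genes stay between -0.075 and 0.084, while the brain list reaches 0.51 in heterozygous 3 and the myelin list 0.88 in heterozygous 1.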

How the data were processed

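The deposited table holds MAS5 signals, linear intensity values per probe set that the authors obtained with MAS5, per the submitters' processing notes; no MAS5 version, settings or genome build are named there. The 2% trimmed mean was 500 on every array, so no further scaling was applied. Of 45101 probe sets 64 are controls and were left out. Genes came from the platform annotation, only where it names 1 gene.

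Signals were analysed as log2(signal + 38.8), where the offset equals the pooled 25th percentile and understates changes of dim probe sets. Probe sets at or above the median mean level were tested with limma (version 3.58.1, R 4.3.3; lmFit, eBayes with an intensity trend, 4 residual and 6.68 prior degrees of freedom), after a test on simulated data. The labels do not say that samples came from separate animals, so p-values measure the spread between these samples. Members, lists and alternatives were chosen with earlier results of these data known. Named with values were members at an unadjusted p under 0.05, per role those of lowest p, highest mean and largest spread, the transcription factors, and tested members whose probe sets had opposite signs; from each other list, the top 2 genes by p and the top 2 by mean. Others are mentioned by their difference only. The alternatives were 16 planned and 1 added.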

Additional observations from a re-analysis of the deposited data

How the results depend on the processing

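No member passed adjustment in limma under any of the 17 alternatives, the plain test included, with 2 to 6 members at an unadjusted p under 0.05 in each, beside 3.30% to 9.86% of probe sets, and 4 in the setting reported, beside 5.73%. Over all probe sets the count past adjustment was 0 in the setting reported and 1 with the offset at the pooled median; leaving out single arrays gave 0 to 25, and leaving out heterozygous 1 and 3 together 30. The median difference of the members was -0.011 with arrays shifted to a common median, where that of all genes was -0.057, and 0.014 to 0.095 without single arrays. The count above 0 was 28 to 37 of 51 without single arrays and 16 of the 21 tested with the filter at the 75th percentile, where fewer genes are tested. The labels do not say whether replicate numbers pair the arrays. Same-numbered arrays correlated at 0.016, -0.12 and -0.047 in their deviations, beside -0.073 to 0.13 for arrays of different number. With 3 arrays per group these values cannot settle whether arrays were paired. With the replicate block 0 members and 0 probe sets passed in limma, with 4 members at an unadjusted p under 0.05.

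Of 454 values of the 28 named members under alternatives, 415 kept their sign and 39, in 13 genes, reversed. Shifting arrays to a common median lowered the differences of all genes together, so those near 0 turned with it: Cfap298 at -0.017, Drc3 at -0.0098, Dynlrb2 at -0.063, Rfx2 at -0.011, Rsph9 at -0.029 and Tekt1 at -0.052. The cause of the other reversals was not tested. Without heterozygous 1 and 3 they were Cfap298 at -0.0081, Cfap410 at 0.14, Dynlrb2 at -0.085, Hydin at -0.086, Rfx2 at -0.074, Rsph9 at -0.078 and Tekt1 at -0.0066. With a gene's probe sets averaged they were Cfap410 at 0.098, Dnah9 at -0.074 and Rsph3a at 0.099, and with the offset at the pooled median Dnah11 at 0.0013. Leaving out single arrays gave -0.023 to 0.083 for Cfap298, -0.16 to 0.053 for Cfap410, -0.061 to 0.12 for Dnah11, -0.16 to 0.056 for Dnal4, -0.0069 to 0.14 for Drc3, -0.052 to 0.060 for Dynlrb2, -0.096 to 0.21 for Rfx2, -0.026 to 0.11 for Rsph9, -0.021 to 0.049 for Tekt1 and -0.026 to 0.25 for Tekt2. The same gave 0.18 to 0.24 for Rfx3, 0.22 to 0.50 for Cfap69, 0.29 to 0.56 for Drc1 and -0.39 to -0.22 for Cfap20dc. Dim probe sets, close to the offset, carry little information on differences.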
